A study of Rattus norvegicus with 6 samples.

Results

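Enteroendocrine nuclei of the rat ileum were the nuclei that held unique molecular identifiers (UMIs, each counting 1 captured RNA molecule) of at least 3 different genes of Chga, Chgb, Cpe, Neurod1, Pcsk1, Scg2, Scg3 and Insm1, with Chga, Chgb, Neurod1 or Insm1 among them. They were thus chosen by their own measured counts of these 8 genes. The rule found 260 such nuclei among the 40970 nuclei that passed quality limits of at least 1200 UMIs, at least 500 genes and at most 5% mitochondrial UMIs, or 0.635%. Single-nucleus RNA-seq had been run on ileum from 6 male Sprague-Dawley rats that were 6 weeks old before 7 days of acclimatisation, with 1 library per rat. In 3 SAP rats, severe acute pancreatitis had been induced by infusing 3% sodium taurocholate, a bile salt, backwards into the pancreatic duct at 0.1 mL per 100 g body weight and keeping the duct clamped for 5 min. The 3 CON rats had undergone a sham laparotomy with no infusion. All rats were fasted with free access to water, tissue was taken at 24 h, and mesenteric fat and visible Peyer's patches were kept out of it, so the groups share surgery and fasting.

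Enteroendocrine cells are rare epithelial cells that sense the gut contents and release peptide hormones or serotonin from dense-core granules. The granule proteins chromogranin A and B (Chga, Chgb) and secretogranins (Scg2, Scg3) are packed with the hormones, and Pcsk1 and Cpe cut and trim the hormone precursors. Subtypes are named for their product: enterochromaffin cells make serotonin with tryptophan hydroxylase (Tph1), L cells make glucagon-like peptides (from Gcg) and peptide YY (Pyy), N cells neurotensin (Nts), D cells somatostatin (Sst), I cells cholecystokinin (Cck), K cells Gip and X cells ghrelin (Ghrl). Enteric neurons use many of the same secretory genes, so the 8 marker genes alone cannot separate the 2 kinds of cell.

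CON replicates 1, 2 and 3 gave 68, 45 and 53 enteroendocrine nuclei, and SAP replicates 1, 2 and 3 gave 13, 45 and 36, the order used for all values below. Together they held 1256505 UMIs, of which CON replicates 1, 2 and 3 gave 453507, 102110 and 225187 and SAP replicates 1, 2 and 3 gave 27229, 212433 and 236039, so SAP replicate 1 set the lowest precision. A gene with no UMI could still be present at up to 110.2 counts per 1000000 UMIs of the enteroendocrine nuclei of a library (CPM) in SAP replicate 1 and at up to 6.62 CPM in CON replicate 1, the upper limit that a count of 0 allows at 3 counts. The median enteroendocrine nucleus held 2354 UMIs and the median of all other passing nuclei 1759 UMIs. No barcode name was shared between enteroendocrine nuclei of different libraries, whereas 5398 barcode names of passing nuclei occurred in more than 1 library.

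Most members held just enough markers. Exactly 3 marker genes were found in 149 nuclei, 4 in 76, 5 in 27, 6 in 6 and 7 in 2, while 403 passing nuclei with 2 marker genes, a required one among them, fell just outside. At least 2 UMIs of the hormone genes that set the subtypes were found in 53.0% of the nuclei with exactly 3 markers and in 20.6% of those with exactly 2. Nuclei just inside the limit therefore held hormone RNA more often than those just outside it, at median depths of 2218 and 2278 UMIs.

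The markers themselves, which chose the nuclei and are given without a test, were all higher in the members than in the other nuclei of the same library in 6 of 6 libraries. Chgb stood at 1905, 2213 and 1168 CPM in the CON members and at 3599, 969.7 and 763 CPM in the SAP members, beside 19.9 CPM in all other nuclei. Chga stood at 776, 1400.5 and 688 CPM in CON and at 2277, 984 and 691 CPM in SAP, beside 11.9 CPM elsewhere. Scg2 stood at 351, 558 and 155 CPM in CON and at 1175, 160.1 and 153 CPM in SAP, beside 4.32 CPM elsewhere. The groups overlapped for each of these, and SAP replicate 1, with 13 nuclei, was the highest library for all 3. Among members of up to 10000 UMIs, however, CON replicate 1 was the highest for Chgb, at 4572 CPM against 3599 in SAP replicate 1, which holds none above that depth. For Scg2, 35.4% of the UMIs lay in the nuclei with neuron genes, and without those it stood at 209, 496 and 160.0 CPM in CON and at 614, 157 and 151 CPM in SAP. The transcription factors Neurod1 and Insm1, which drive the endocrine fate, stood at 93.1 and 27.9 CPM in the members against 1.30 and 0.837 CPM elsewhere. Cpe, Pcsk1 and Scg3 stood at 353, 41.4 and 48.5 CPM, against 21.6, 2.16 and 2.16 CPM, and Scg3 at 37.3 CPM without the nuclei with neuron genes, which held 34.4% of its UMIs. The members were 0.635% of the passing nuclei and held 47.9% of all Chga UMIs and 48.3% of all Chgb UMIs in them.

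Some members stood apart from the rest. In 25 of the 260 (9.62%) the depth was above 10000 UMIs, up to 94771, against 1.48% of all other nuclei. CON replicates held 9, 0 and 4 of them and SAP replicates 0, 4 and 8, and 16 of the 25 held exactly 3 marker genes. These 25 nuclei held 45.9% of all UMIs of the members but 8.0% of their Chgb UMIs and 11.3% of their Chga UMIs, so levels over all members are diluted by them in the libraries that hold them. They held 66.3% of the UMIs of Fcgbp, a goblet cell mucus gene, and 60.5% of those of the epithelial keratin Krt8. Whether they are 2 or more nuclei under 1 barcode was not tested, since no doublet caller was run.

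A second group was marked by genes of enteric neurons. In 21 members (10, 3 and 2 in CON, 1, 2 and 3 in SAP), 3 or more of 17 genes of enteric neurons were found, and 16 of the 21 held 5 or more. Their summed level of those 17 genes was 2547 CPM, against 111 CPM in the other 239 members and 71.0 CPM in all other nuclei. Their median level of 14 genes shared by all gut epithelium was 1968.5 CPM, against 5390.8 CPM in the other members and 5832.8 CPM in all other nuclei. The 21 nuclei were picked by the neuron genes, so their neuron level follows from the choice, while the epithelial level played no part in it.

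Regulatory sequence could be read for the genes of the granule. The rat promoters of Scg2 and Sst are shown because both held an exact copy of TGACGTCA, the cyclic AMP response element, in capitals below. They come from RefSeq on build GRCr8 and read 5′ to 3′ along the gene, at chr9:88256952-88257049 on the minus strand for Scg2 and chr11:90461488-90461565 on the plus strand for Sst.
Scg2: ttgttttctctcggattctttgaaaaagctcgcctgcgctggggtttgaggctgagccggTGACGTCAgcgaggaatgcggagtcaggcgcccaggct
Sst: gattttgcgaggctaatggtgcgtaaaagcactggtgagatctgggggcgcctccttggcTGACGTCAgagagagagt
The element reads the same on both strands. It was found in the windows from 250 bases before to 50 bases after the start of 525 of 27457 rat genes (1.91%) and of 5 of the 47 marker, hormone and granule genes that matched the table, of 62 listed. These 5 were Scg2, Sst, Cartpt, Vgf and Slc18a2. An E-box of the letters CAGATG, searched on both strands, was in 16.3% of all windows and in 9 of the 47. These matches describe letters only.

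RNA of serotonin synthesis and of several peptide hormones was found. Tph1 was the gene with the highest ratio of members to other nuclei, at 77.4, among 4952 genes with at least 50 UMIs in the members and some in every library. It stood at 57.3, 637 and 333 CPM in CON and at 551, 202 and 131 CPM in SAP, beside 2.62 CPM in all other nuclei. CON replicate 1 was the lowest library and the groups overlapped. Tac1, the precursor of substance P that enterochromaffin cells release with serotonin, stood at 319.7, 1058 and 395 CPM in CON and at 698, 179 and 318 CPM in SAP. UMIs of Tph1 were found in 88 members and of Tac1 in 132.

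The L and N cell hormones varied widely between libraries. Gcg stood at 1244, 959.7 and 75.5 CPM in CON and at 881, 108 and 305 CPM in SAP. Pyy stood at 1098, 1087 and 66.6 CPM in CON and at 0, 84.7 and 635 CPM in SAP. Nts stood at 1363, 1116 and 107 CPM in CON and at 0, 287 and 84.7 CPM in SAP. CON replicate 3 was therefore as low as the SAP libraries for all 3 hormones, while the other two CON libraries were high. The zeros of SAP replicate 1 are counts in 13 nuclei, which allow up to 110.2 CPM. Among members of up to 10000 UMIs the spread was wider: Nts then stood at 3212, 1116 and 171 CPM in CON and at 0, 429 and 238 CPM in SAP.

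RNA of other hormones was found as well. Sct, which encodes secretin, was found in 85 members and stood at 798, 1058 and 66.6 CPM in CON and at 184, 146 and 275 CPM in SAP. Cck was found in 46 members and stood at 128, 215 and 4.44 CPM in CON and at 0, 14.1 and 59.3 CPM in SAP. Sst was found in 15 members and stood at 143, 166 and 62.2 CPM in CON and at 184, 33.0 and 42.4 CPM in SAP. Gip, the glucose-dependent insulinotropic peptide, had 23 UMIs in 6 nuclei. Ghrl, Insl5 (an L cell hormone of the colon) and Calca had 0 UMIs in 0 of 260 nuclei, which allows a share of nuclei with a UMI of up to 1.15% and a level of up to 2.39 CPM.

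Free RNA in the nuclei suspension was gauged in nuclei that should lack hormones, after thinning every nucleus to 1200 UMIs. Tph1 was then found in 25.8% of the members, in 0.976% of 615 nuclei with lymphocyte genes and in 0% of 178 nuclei with smooth muscle genes. Gcg was found in 15%, 1.30% and 1.12% of them, and Nts in 15%, 1.95% and 3.93%. The unthinned medians were 2354, 1691 and 1529.5 UMIs. These reference nuclei were limited to those with no other type's genes, which leaves out most. Among all 5424 other nuclei with 3 or more lymphocyte genes, whatever else they held, Tph1 was found in 0.350%, Gcg in 1.27% and Nts in 1.90%, at an unthinned median of 2191 UMIs. All 3 shares were lower than in the members as a whole, though SAP replicate 1 held no Nts. Gip rested on few nuclei: it was found in 3 thinned members (1.15%), 0% of the lymphocyte nuclei and 0.562% of the smooth muscle nuclei. Among the 5424 nuclei its share was 0.442%. Guca2a did not stand apart: this guanylin gene, which goblet and surface epithelial cells make, was found in 31.9% of the members, 31.2% of the lymphocyte nuclei and 32.0% of the smooth muscle nuclei, and its level is read as background. Guca2b was found in 2.69% of the members, 3.25% of the lymphocyte nuclei and 3.93% of the smooth muscle nuclei.

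Several neuropeptides came from the nuclei with neuron genes. All 2405 Gal UMIs were in these nuclei, 2369 of them in a single nucleus of CON replicate 1, so galanin was the most abundant listed hormone gene in the sums through 1 nucleus. They also held 99.6% of the 228 Vip UMIs, all 86 Npy UMIs, 96.7% of the 30 Cartpt UMIs, 89.3% of the 112 Nmu UMIs and all 21 Calcb UMIs. Vip, Npy and Gal encode transmitters of enteric neurons. By contrast the neuron-marked nuclei held no Pyy, Nts or Cck UMI, 0.25% of the Gcg UMIs and 6.27% of the Tph1 UMIs, but 25.4% of the 118 Sst UMIs. Without them Sst stood at 82.0 CPM over all members in place of 93.9, and Tph1 at 223 in place of 203.

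**Figure D1:**
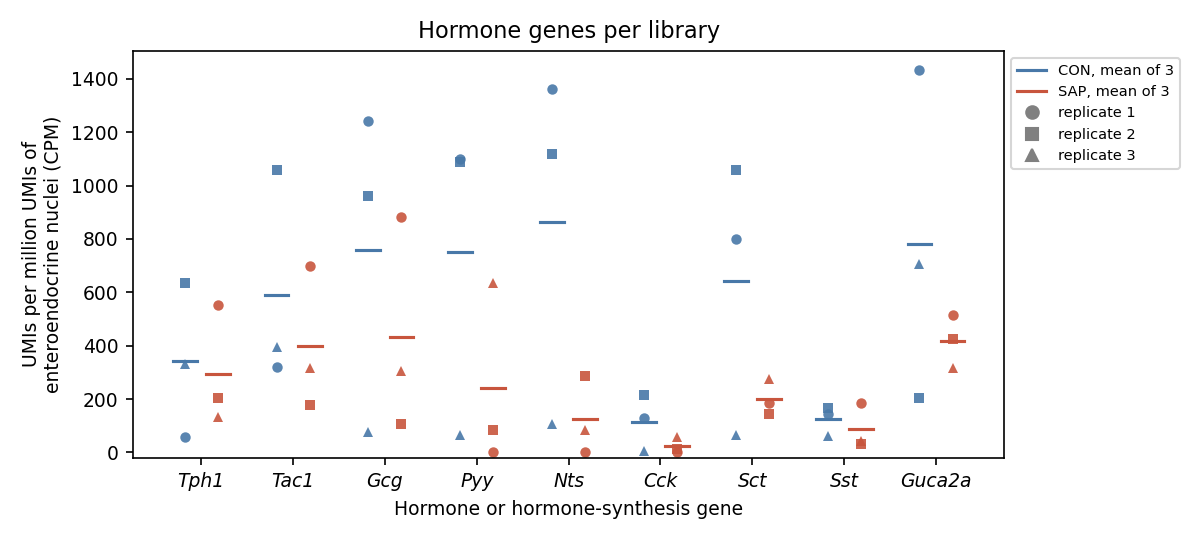
Level of 9 hormone or hormone-synthesis genes in the summed enteroendocrine nuclei of each library, in CPM of those nuclei; a symbol is 1 library (circle, square and triangle for replicates 1, 2 and 3), blue is CON, red is SAP and lines are group means. CON replicates 1 and 2 lie between 959.7 and 1363 CPM for Gcg, Pyy and Nts, while CON replicate 3 lies between 66.6 and 107 CPM, within or below the range of the SAP libraries.

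Nuclei were sorted into hormone classes by the gene sum that led in them (Tph1 for enterochromaffin, Gcg with Pyy and Insl5 for L, then Nts, Cck, Sst, Ghrl and Gip) if it reached 2 UMIs. Of the 260, 59 fell into the enterochromaffin class, 53 into the L class, 17 into the N class and 14 into the D class. At this limit none was led by Cck, Ghrl or Gip, 2 were tied and 115 stayed under the limit of 2 UMIs. Of those 115, 41 had a leading sum of 1 UMI and 74 held no UMI of these genes, and of the 143 nuclei in a class 30 stood exactly at the limit, so the classes depend on depth.

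The mix of classes differed between libraries of one group. Enterochromaffin nuclei numbered 4, 15 and 15 in CON but 3, 13 and 9 in SAP. L nuclei numbered 18, 11 and 5 in CON, compared with 1, 7 and 11 in SAP. N nuclei numbered 7, 5 and 2 in CON and 0, 3 and 0 in SAP, and D nuclei 4, 1 and 4 in CON and 1, 2 and 2 in SAP. CON replicate 1 had more L than enterochromaffin nuclei and CON replicate 3 the reverse.

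As a share of the enteroendocrine nuclei, no class passed the test between SAP and CON (limma on logit shares, adjusted over the classes). The N share was 8.39% ± 4.02 in CON, against 2.22% ± 3.85 in SAP (SD, n = 3), a difference of -6.17 percentage points (limma p = 0.0576, adjusted p = 0.345, exact permutation p = 0.2). Enterochromaffin nuclei made up 22.5% ± 14.6 and 25.7% ± 2.96, a difference of 3.15 points (limma adjusted p = 0.642). L nuclei made up 20.1% ± 9.31 and 17.9% ± 11.6 (limma adjusted p = 0.857), and D nuclei 5.22% ± 2.72 and 5.90% ± 1.65 (limma adjusted p = 0.742). With 3 rats a group the exact test cannot go below 0.1. Single libraries turned the sign of 3 of these differences. Enterochromaffin was -5.16 points without CON replicate 1, L was 2.94 without SAP replicate 1 and D was -0.817 without CON replicate 2. The N difference kept its sign.

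**Figure D2:**
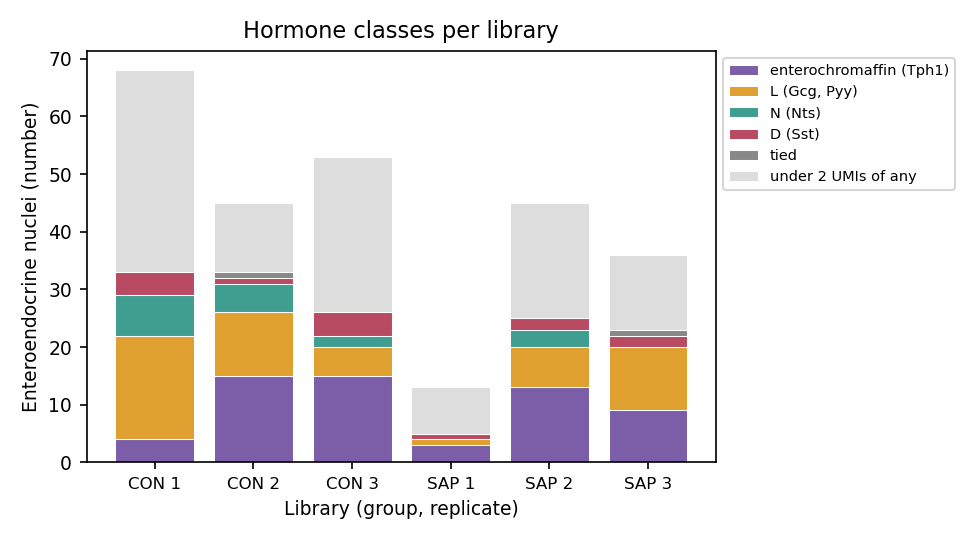
Number of enteroendocrine nuclei in each hormone class in the 6 libraries, stacked; grey is tied and light grey is under 2 UMIs of any class gene. CON replicate 1 holds 4 enterochromaffin and 18 L nuclei, CON replicate 3 holds 15 and 5, and 115 of the 260 nuclei are in no class.

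Serotonin and the peptide hormones of the L and N classes were not found together at 2 or more UMIs of each. Of the members, 38 held at least 2 UMIs of both Tph1 and Tac1, 42 of both Tph1 and the vesicular monoamine transporter Slc18a1, and 40 of both Tph1 and the transcription factor Lmx1a. No member (0 of 260) held 2 or more UMIs of both Tph1 and any of Gcg, Pyy, Nts, Cck or Sst, and 4 held Tph1 with Sct. Single UMIs did occur, with Gcg in 2 of the 59 enterochromaffin nuclei and Pyy in 1. Among the peptide hormones overlap was common, with 24 members for Gcg and Pyy, 23 for Pyy and Nts, 17 for Gcg and Cck, 16 for Pyy and Cck, 28 for Pyy and Sct, and 7 for Gcg and Nts. Cck and Gip thus appeared inside nuclei led by other hormones. Of the 70 nuclei of the L and N classes, 36 held a Cck UMI and 5 held a Gip UMI. At the limit of 2 UMIs no nucleus was led by either gene. At a limit of 1 UMI, 3 nuclei were led by Cck and 0 by Gip, and in thinned nuclei 1 was led by each. The L class sums Gcg, Pyy and Insl5 against Cck or Gip alone. The absence of nuclei led by Cck or Gip therefore depends on the limit and the rule. Tph1, Gcg, Pyy, Nts, Cck, Sst and Gip set the classes, so their separation between classes is no finding.

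Genes that set no class also differed between the 59 enterochromaffin nuclei and the 70 L and N nuclei, given here as a description with no test. In the enterochromaffin nuclei, Lmx1a was found in 46 against 1, Slc18a1 in 52 against 5, the zinc-finger factor Glis3 in 46 against 5 and the vesicle protein Rab3c in 28 against 2. Chgb was found in all 59 against 18 of 70, at 3524 against 104 CPM. Chga was found in 58 against 51, at 2296 against 294 CPM. The classes were not compared at equal depth, and their median nuclei held 1879 and 2557.5 UMIs. Chgb and Chga are among the 4 required genes, and a nucleus of either class could enter only with at least 1 of those. The shares of nuclei with Chgb or Chga thus follow in part from the rule.

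Serotonin synthesis genes followed the same division. Ddc, the decarboxylase that makes serotonin, was found in 51 enterochromaffin nuclei and 18 L and N nuclei, at 909 against 94.9 CPM. Gch1, which makes the cofactor of tryptophan hydroxylase, was found in 31 against 15. Slc18a1 stood at 968 against 22.1 CPM, whereas Slc18a2, the other vesicular monoamine transporter, had 4 UMIs in all members, 75% of them in nuclei with neuron genes.

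Other genes were found more often in the L and N nuclei than in the enterochromaffin ones. The factor Etv1 was found in 50 of them and in 3 enterochromaffin nuclei, at 475 against 24.6 CPM, and the calcium-binding protein secretagogin (Scgn) in 30 against 2. Abcc8 and Kcnj11, the subunits of the ATP-sensitive potassium channel that couples sugar metabolism to secretion, were found in 25 against 0 and in 8 against 0. The islet factors Isl1 and Pax6 were found in 17 against 1 and in 29 against 9, and Sct in 47 against 10. With 8 nuclei, Kcnj11 rests on few counts. Some were also found in the D class, with Abcc8 in 7, Kcnj11 in 3 and Isl1 in 8 of its 14 nuclei. Genes of general secretion were found in most nuclei of both classes: Cacna1a in 51 enterochromaffin and 60 L and N nuclei, Kcnb2 in 49 and 57, Rimbp2 in 50 and 59, and Epcam, an epithelial adhesion gene, in 40 and 57.

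**Figure D3:**
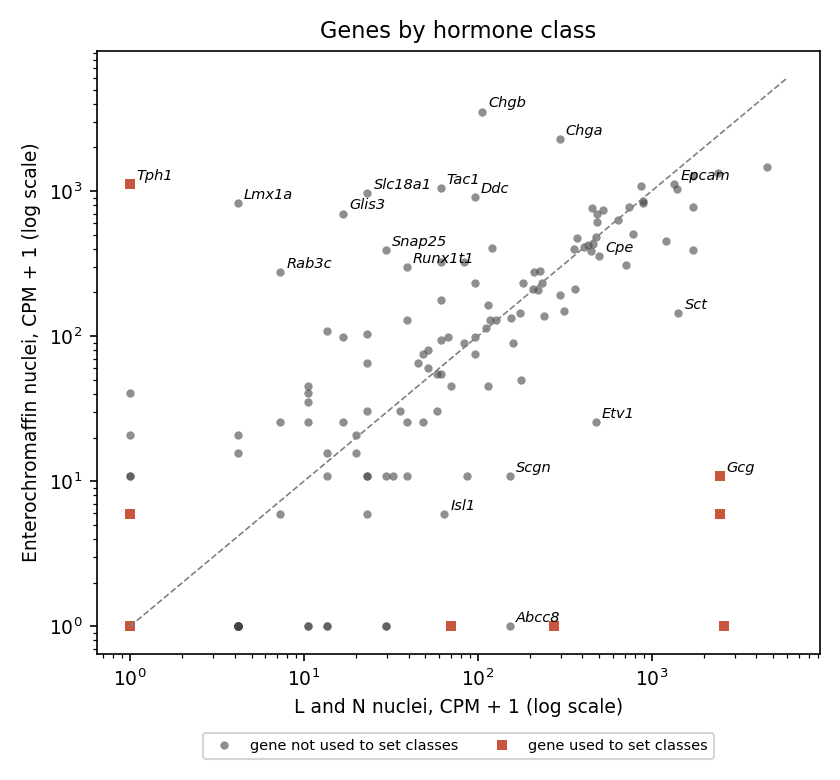
Level of each marker, hormone, factor, granule, channel, receptor or epithelial gene in the 59 enterochromaffin nuclei (vertical axis) against the 70 L and N nuclei (horizontal axis), both as CPM + 1 on log axes; red squares set the classes and the dashed line marks equal levels. Lmx1a, Slc18a1, Glis3 and Chgb lie above the line, and Etv1, Scgn, Abcc8 and Sct below it. Chgb is among the marker genes that chose the nuclei.

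The D class was small. Its 14 nuclei held 117 of the 118 Sst UMIs, Isl1 was found in 8 of the 14 and the D cell factor Hhex in 2. Of the 14, 4 held more than 10000 UMIs, and the class as a whole held 191466 UMIs at a median of 2164, so a few deep nuclei carry most of its counts. Of the same 14, 5 were among the nuclei with neuron genes, against 3 of 59 enterochromaffin nuclei, 0 of 70 L and N nuclei and 13 of the 115 nuclei under the limit. Enteric neurons can also make somatostatin. Of the 115 nuclei under the limit, 58 held a Tac1 UMI and 42 an Lmx1a UMI, at a median depth of 2582 UMIs.

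Beyond the hormones, the members carried the transcription factors of the endocrine lineage. Of 28 listed factors, 26 were higher in the members than in all other nuclei and 15 of them were so in all 6 libraries. Lmx1a stood at 228 against 4.28 CPM, Pax6 at 76.4 against 2.90, Rfx6 at 119 against 5.85, Isl1 at 33.4 against 1.07 and Nkx2-2 at 33.4 against 1.29 CPM. These act in differentiated endocrine cells. Neurog3, which marks the progenitor stage, had 7 UMIs in 4 members, and Atoh1, a secretory factor shared with goblet cells, was lower in the members, at 15.9 against 19.9 CPM.

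The machinery of granule release was mostly higher. Of 30 listed genes for granule content, processing and exocytosis, 28 were higher in the members and 19 were so in all 6 libraries. Cadps, which primes dense-core vesicles, stood at 388 against 20.4 CPM, the granule membrane proteins Ptprn and Ptprn2 at 65.3 against 2.89 and 550 against 110 CPM, and the fusion protein Snap25 at 146 against 5.30 CPM. Pcsk2 stood at 46.2 against 7.63 CPM, but 87.9% of its UMIs lay in the 21 nuclei with neuron genes. The same nuclei held 74.4% of the Pcsk1n UMIs, 66.7% of the Scg5 UMIs and 25.7% of the Snap25 UMIs, against 3.35% of the Slc18a1 UMIs. Without them Scg2 stood at 212 CPM in the members in place of 281, and Pcsk2 at 6.52 CPM, below the 7.63 CPM of all other nuclei.

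The members also had the channels of electrically active cells. Of 18 listed genes, 17 were higher and 9 were so in all 6 libraries. Cacna1a, the pore of a presynaptic calcium channel, stood at 722 against 59.4 CPM and was found in 210 of the 260 nuclei. Kcnb2, a delayed rectifier potassium channel, stood at 786 against 65.6 CPM in 198 nuclei, and the sodium channel Scn3a at 146 against 5.83 CPM in 108 nuclei. Scn9a and Scn8a, at 10.3 and 27.1 CPM, had 76.9% and 58.8% of their UMIs in nuclei with neuron genes. The mechanosensor Piezo2 was found in 26 members, with 31.8% of its UMIs in nuclei with neuron genes, and the irritant receptor Trpa1 in 15, the latter at 13.5 against 11.8 CPM, near its level elsewhere.

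Receptors for nutrients and hormones were sparse. Of 22 listed genes, 17 were higher in the members but 2 were so in all 6 libraries, Gipr among them. Gipr, the receptor of Gip, was found in 46 nuclei at 41.4 against 3.83 CPM. Sstr1, a somatostatin receptor, was found in 13 nuclei, and the members held 45.2% of its UMIs in all passing nuclei. The fatty acid receptor Ffar1 had 1 UMI, the lipid receptor Gpr119 had 3, and Ffar3, Mc4r and Tas1r3 had none. The bile acid sensor Nr1h4 (364 against 357 CPM) and Ffar4 (72.4 against 64.0 CPM) were at about the level of the other nuclei.

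Other genes led the ratio without being on any list of hormones. The adhesion receptor Adgrg4 stood at 62.9 against 1.13 CPM in 47 members, the amino acid transporter Slc38a11 at 42.2 against 1.02 in 41, the potassium channel Kcnc2 at 189 against 5.86 in 99 and the collagen Col25a1 at 209 against 8.16 in 88. Celf3, a splicing factor of neural and endocrine cells, stood at 72.4 against 2.81 CPM in 68 members and the adhesion protein Amigo2 at 67.6 against 2.66 CPM in 63. Resp18, a granule protein, stood at 86.7 against 2.21 CPM with 42.2% of its UMIs in nuclei with neuron genes, and at 58.7 CPM without them. The uncharacterised LOC120099863 stood at 76.4 against 2.04 CPM in 64 members, 1.04% of it in nuclei with neuron genes.

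RNA of other cell types was also found in the members. The summed level of 9 goblet genes, led by Fcgbp, was 12458, 3447 and 9374 CPM in the CON members and 3562, 2340 and 5436 CPM in the SAP members. In all other nuclei it was 9370, 5945 and 5606 CPM in CON and 7765, 3148 and 6417 CPM in SAP. At least 3 goblet genes were found in 204 of the 260 members (and in 77.8% of all passing nuclei), so this does not mark goblet cells. The sum of 8 Paneth genes, led by the defensin Defa24, was 12602, 1254 and 1692 CPM in the CON members and 21191, 9189 and 792 CPM in the SAP members, with Defa5 at 0. In the other nuclei it was 51964, 3882 and 4846 CPM in CON and 33483, 3165 and 2897 CPM in SAP. At least 3 lymphocyte genes were found in 40 members, 3 tuft cell genes in 22 and 3 smooth muscle genes in 16. The mast cell genes Ms4a2 and Fcer1a and the glial gene Foxd3 had no UMI in the members.

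The share of enteroendocrine nuclei did not pass the test between the groups. It was 0.735%, 0.719% and 0.630% in CON replicates 1, 2 and 3, and the SAP replicates had 0.408%, 0.754% and 0.456%. SAP replicates 1 and 3 were below every CON library and SAP replicate 2 above them all. The exact binomial 95% intervals ran from 0.572% to 0.931% for CON replicate 1 and from 0.217% to 0.696% for SAP replicate 1, the libraries with the most and the fewest passing nuclei. The means were 0.695% ± 0.0568 in CON and 0.539% ± 0.188 in SAP (SD, n = 3), a difference of -0.155 percentage points (exact permutation p = 0.4; limma on logit shares over 5 nuclei sets, p = 0.472, adjusted p = 0.645). Its sign turned with 2 or more markers (0.0502 points) and at a 1% mitochondrial limit (0.0384 points). The difference was -0.263 points without SAP replicate 2 and -0.0897 without SAP replicate 1. It was -0.0063 points without members holding 3 genes of another type. A nucleus with less marker RNA fails the rule, so fewer such cells and less marker RNA per nucleus cannot be told apart. CON replicate 2 and SAP replicate 1 list barcodes below 1000 UMIs and the other 4 libraries do not. Within the first pair the shares were 0.719% in CON and 0.408% in SAP, and within the rest 0.735% and 0.630% in CON and 0.754% and 0.456% in SAP. With the type of barcode list as a term, a fit chosen after seeing the data, the limma adjusted p was 0.645. Each group holds 1 library with the longer list, so that term could not move the difference of -0.155 points.

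**Figure D4:**
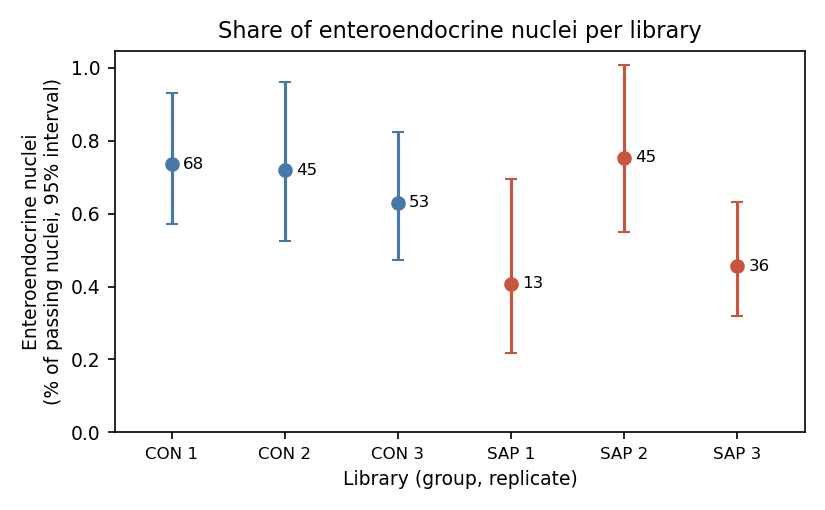
Share of enteroendocrine nuclei among passing nuclei of each library in percent, with exact binomial 95% intervals that cover counting error; blue is CON, red is SAP and numbers are nuclei. The CON libraries lie between 0.630% and 0.735%, the SAP libraries between 0.408% and 0.754%.

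No gene passed the test of SAP against CON in the enteroendocrine nuclei. UMIs were summed over the members of each library and tested with edgeR's quasi-likelihood test, in which 0 of 5531 genes (percent called 0) had a Benjamini-Hochberg adjusted p under 0.05 with a log2 fold change of at least 0.5. Without SAP replicate 3 it called 1 gene (Itln1), and with no filter on low counts 33 of 20635. An unadjusted p under 0.05 was found for 169 genes (3.06%), and by DESeq2 for 99. The median log2 fold change over all tested genes was -0.016, with 51.6% of genes below 0 and 48.4% above. Levels in the next paragraphs are means of CPM scaled by edgeR's normalization factors.

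All 9 hormone genes with enough counts to be tested, of 24, had log2 fold changes below 0, with a median of -1.21 beside -0.016 for all genes, and in none did the groups fail to overlap (8.30% of all genes did). One of the 9 is Guca2a, which was not told apart from background above. Its -1.02 became 0.026 without members above 10000 UMIs, and the other 8 genes had a median of -1.34. The 15 untested hormone genes, among them Gal, Vip, Gip and Nmu, did not pass the filter on low counts. Nts had a log2 fold change of -2.52 (SE 0.88), at 1056 ± 843 CPM in CON and 150.4 ± 182 CPM in SAP (SD, n = 3), with an edgeR adjusted p of 1.00. Sct had -1.65 (edgeR adjusted p = 1.00), and these 2 of the 9 had an unadjusted p under 0.05. Cck, Pyy, Sst, Gcg and Guca2a lay between -1.70 and -1.02. Tac1 (-0.70) and Tph1 (-0.38), the enterochromaffin genes, lay nearest to 0. For Nts, Gcg, Pyy, Cck and Sct the unscaled levels over all members overlapped through CON replicate 3 alone. Among members of up to 10000 UMIs that no longer held for Pyy, at 2548, 1087 and 107 CPM in CON and 0, 126 and 1785 CPM in SAP. Single libraries moved several of these fold changes: Gcg was -0.35 without CON replicate 1, -0.53 without SAP replicate 2 and -1.91 without SAP replicate 1. Pyy was -0.93 without CON replicate 1 and -3.49 without SAP replicate 3, and Cck was -3.06 without SAP replicate 3. Guca2a was -0.15 without CON replicate 1, and Tac1 was -0.10 without CON replicate 2, -0.29 without SAP replicate 2 and -1.19 without SAP replicate 1. Tph1 was -0.86 without CON replicate 1, -0.89 without SAP replicate 1 and -0.25 without SAP replicate 2, and lay above 0 without CON replicate 2 (0.33) or SAP replicate 3 (0.058).

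The same libraries differed in which classes they held. CON replicates 1 and 2 had 25 and 16 nuclei in the L and N classes and CON replicate 3 had 7, against 1, 10 and 11 in SAP. The part of this mix in the hormone levels was not tested.

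Genes of the endocrine program were more often below 0 than above, with none passing the test. Of the tested lineage factors 9 of 12 were below 0 (median -0.54), of granule and secretion genes 17 of 20 (median -0.51) and of excitability genes 7 of 10 (median -0.47), and 0 were called. The neuron-marked members numbered 15 in CON and 6 in SAP, and without them the counts were 9 of 12, 15 of 17 and 8 of 10 (medians -0.53, -0.56 and -0.59). Without CON replicate 2 they were 7 of 13, 11 of 21 and 7 of 11 (medians -0.10, -0.18 and -0.17). Summed over the 30 granule genes, the unscaled levels overlapped, with 3297, 9118 and 4907 CPM in CON against 7161, 3234 and 3635 CPM in SAP. Groups did not overlap for 3 of the 20 tested granule genes, beside 8.30% of all genes, among them Rab27b, a granule transport protein, at 106 ± 24.1 CPM in CON and 36.6 ± 32.9 CPM in SAP (log2 fold change -1.07, edgeR adjusted p = 1.00). They did not overlap for 1 of the 10 tested excitability genes, the intracellular calcium channel Ryr2, at 135 ± 43.4 and 77.3 ± 10.4 CPM (-0.89, edgeR adjusted p = 1.00). Lmx1a was at 422 ± 306 CPM in CON and 259 ± 115 CPM in SAP, and Pax6 at 174 ± 178 and 57.9 ± 15.8, both with overlap. The marker genes Chga (0.44) and Chgb (-0.032), which chose the nuclei and get no test, lay on either side of 0. Receptor genes were above 0 in 4 of 5 (median 0.29).

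Antigen presentation genes were more often above 0. All 7 tested genes of MHC class II were above 0 (median 0.77, and 0.45 without CON replicate 2), and groups did not overlap for 2 of them, beside 8.30% of all genes. Cd74, the invariant chain and the most abundant of them, stood at 593 ± 363 CPM in CON and 1018 ± 314 CPM in SAP with overlap (0.79, edgeR adjusted p = 1.00). Summed over the 11 listed genes the unscaled level was 886, 372 and 1621 CPM in CON against 1616, 2250 and 1758 CPM in SAP, so CON replicate 3 was level with SAP replicate 1 and the other CON libraries were lower. RT1-Db1 stood at 96.9 ± 117 CPM in CON and 369 ± 74.9 CPM in SAP (log2 fold change 1.82, edgeR adjusted p = 1.00). Of 13 genes of MHC class I and its processing 10 were above 0 (median 0.27), with RT1-A1 at 81.1 ± 49.7 and 281 ± 141 CPM (1.82, edgeR adjusted p = 1.00). Without SAP replicate 2 the RT1-A1 fold change was 1.16. RT1 genes of class I include near-identical copies, so the share of reads among them is uncertain. In all other nuclei RT1-Db1, in unscaled CPM, stood at 98.8, 38.5 and 162 CPM in CON and at 449, 636 and 264 CPM in SAP, the same direction as in the members. Members and other nuclei of a rat share the free RNA of 1 suspension, and its part was not tested.

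Stress genes passed no test either. Of 18 tested unfolded protein response genes 10 were above 0 (median 0.060). Groups did not overlap for 1 of the 18, beside 8.30% of all genes. It was the sensor Ern1, at 97.2 ± 4.83 CPM in CON and 167 ± 26.2 in SAP (0.75, edgeR adjusted p = 1.00). Of 8 immediate early genes 6 were above 0 (median 0.32), and 2 of the 8 did not overlap, beside 8.30% of all genes. These were Ier2, at 28.6 ± 13.9 and 76.0 ± 12.8 CPM (1.49, edgeR adjusted p = 1.00), and Btg2, at 102 ± 30.5 and 205 ± 94.2 CPM (0.73, edgeR adjusted p = 1.00).

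Genes of other cell types spread as widely as any of these. Goblet genes were below 0 in 7 of 8 (median -1.16), with Muc2 at 1619 ± 897 CPM in CON and 441 ± 326 CPM in SAP (-1.81, edgeR adjusted p = 1.00). Enterocyte genes were above 0 in 8 of 11 (median 0.61), with the lipoprotein gene Apoa1 at 430 ± 439 and 3199 ± 2135 CPM (2.84, edgeR adjusted p = 1.00). Among Paneth genes 3 of 4 were above 0 (median 1.65), with Itln1 at 141 ± 83.0 and 2315 ± 2124 CPM (3.94, edgeR adjusted p = 1.00). None passed after adjustment. The other nuclei had the same direction in unscaled CPM for Apoa1 (519, 110 and 1744 CPM in CON, 5504, 3943 and 1251 in SAP), though CON replicate 3 was above SAP replicate 3, and for Itln1 (79.8, 49.0 and 238 CPM in CON, 5915, 721 and 315 in SAP). The 7 tested stem and cycling genes were all below 0 (median -0.58), and the 2 tuft genes, Dclk1 (1.06) among them, above. Of the remaining lists, 7 of 14 epithelial genes were above 0 (median 0.0045), as were 3 of 4 lymphocyte genes (0.44), 2 of 5 enteric neuron genes (-0.57), 0 of 3 smooth muscle genes (-0.87), 1 of 1 glial gene (0.23) and 0 of 1 mast cell gene (-0.76), and no macrophage, fibroblast or endothelial gene had enough counts.

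**Figure D5:**
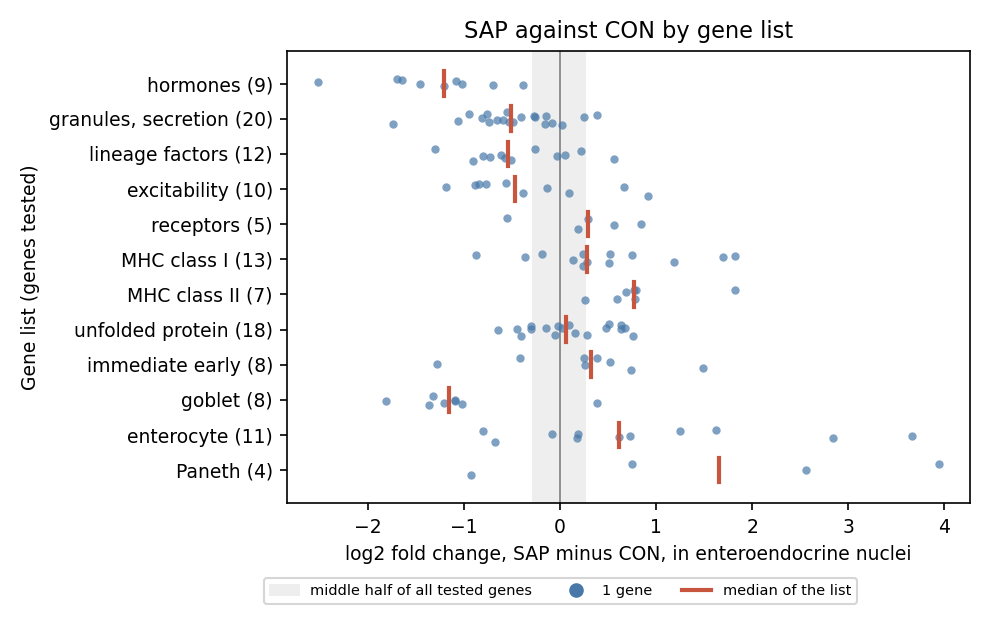
Log2 fold change of SAP against CON in the enteroendocrine nuclei for each tested gene of 12 lists (blue points, numbers tested in brackets), with list medians in red and the range from lower to upper quartile of all 5531 tested genes (-0.29 to 0.26) in grey. All 9 hormone genes, Guca2a among them, lie below 0 and all 7 MHC class II genes above, and no gene passes adjustment.

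The gene with the lowest p was St8sia6, a sialyltransferase. It had 100, 22 and 25 UMIs in the CON members and 0, 0 and 5 UMIs in the SAP members, so the groups did not overlap (log2 fold change -4.11, SE 0.72, edgeR adjusted p = 0.505). Its fold change was -3.32 without SAP replicate 2 and -7.11 without members above 10000 UMIs. Without SAP replicate 3 it was -8.20, a fitted value with no SAP UMI left. By DESeq2 its adjusted p was 0.0176. All other nuclei showed the same division, at unscaled levels of 189, 331 and 309 CPM in CON and at 6.52, 1.99 and 14.4 CPM in SAP, and the effect in the members was not shown to differ from it (interaction 0.84, edgeR adjusted p = 1.00). The next genes lower in SAP without overlap were Cntn5, Nrg1, Muc3l1, Sytl2, Hmcn2, Mcf2l, Bcas1, Galnt5 and Nrxn3, from -3.60 to -1.54. Single libraries moved some of these, with Nrxn3 at -3.59 without SAP replicate 3 and Bcas1 at -0.99 without CON replicate 1. Cntn5 was fitted at -7.68 without SAP replicate 3, again with no SAP UMI left. The 21 nuclei with neuron genes held 89.1% of the Cntn5 UMIs, 75.4% of the Nrg1 UMIs and 73.3% of the Nrxn3 UMIs, and without them these 3 genes did not pass the filter on low counts. Nrg1 then had 32, 2 and 8 UMIs in CON and 0, 8 and 9 in SAP, with overlap. Sytl2, a vesicle tethering protein, had 127, 13 and 36 UMIs in CON and 0, 14 and 9 in SAP. Those higher included Apoc2, Slc3a1, Abhd16a, RT1-CE3, RT1-CE16, Tmem82, Vps52, RT1-A1 and Daglb, from 1.40 to 2.34.

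Whether the SAP effect in the enteroendocrine nuclei differed from that in all other nuclei was tested as an interaction, with the rat as a block. Of 15872 genes 10 passed (0.0630%), all with a lower SAP effect in the members. They were Nrg1, a growth factor of the neuregulin family, the axon guidance receptors Robo1 and Robo2, the neurotrophin receptor Ntrk3, the growth cone protein Gap43, the synaptic adhesion genes Nrxn3 and Cntn5, then Cpne4, Hs3st5 and LOC103690480. Nrg1 had 148, 27 and 35 UMIs in the CON members and 0, 9 and 21 in the SAP members (interaction log2 -2.87, edgeR adjusted p = 1.85e-05). Ntrk3 had 44, 15 and 9 UMIs in CON and 0, 1 and 1 in SAP (-4.90, edgeR adjusted p = 0.00240). Most of these genes are known from neurons, and the 21 nuclei with neuron genes, 15 of them in CON and 6 in SAP, held 75.4% of the Nrg1 UMIs, 87.1% of the Ntrk3 UMIs, 82.6% of the Robo1 UMIs and 97.5% of the Gap43 UMIs of the members. Without those 21 nuclei 0 of 15416 genes passed, with a lowest edgeR adjusted p of 0.298. Without the rat as a block edgeR called 0 genes. Leaving out CON replicate 1 gave 0, CON replicate 3 gave 140, SAP replicate 1 gave 19, SAP replicate 2 gave 2 and SAP replicate 3 gave 1 (Slc39a10, higher in its effect), so the count depends on single libraries.

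None of the hormone genes that could be tested passed that interaction test. The interaction was -0.012 for Sct, -0.49 for Gcg and -2.50 for Nts, each with an edgeR adjusted p of 1.00. The lowest edgeR adjusted p-values among them were 0.326 for Nmu (-4.07) and 0.439 for Guca2a (-0.97). For Sct the low values in SAP members stood beside 70.4, 37.5 and 26.1 CPM in the other CON nuclei and 19.7, 14.6 and 19.7 CPM in the other SAP nuclei. Against 252 nuclei with tuft cell genes, another rare secretory epithelial type, 0 of 3147 genes passed (percent called 0). Against the 25286 nuclei with 3 or more goblet genes and no other type's, 14 of 15383 genes passed (0.0910%), and 2 did without the members with neuron genes; since most nuclei hold goblet RNA, those 25286 are not a goblet cell set.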

How the data were processed

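UMI counts per gene and barcode were deposited by the authors, who had made them with dnbc4tools from DNBelab C libraries; the submitters' processing notes name build mRatBN7.2 and Seurat 4.3.0. The deposited counts were not normalized. The 6 tables together hold 90461 barcodes, 40970 of which passed the limits, with 28771508, 11402966 and 19738010 UMIs in the passing CON nuclei and 5549260, 15490877 and 19435288 in the passing SAP nuclei. No doublet caller was run and free RNA was not removed. Groups came from the labels.

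Counts of the members were summed per library, since the rat is the replicate. They were tested with edgeR 4.0.16 (filterByExpr, TMM factors, robust quasi-likelihood fit, R 4.3.3), with genes called at an adjusted p under 0.05 and a log2 fold change of at least 0.5. Shares were tested with limma 3.58.1 on logits with an offset of 0.5 nuclei. Interactions compared the members with all other nuclei and with nuclei holding 3 or more genes of 1 other type, the rat being a block. DESeq2 1.42.0 was an alternative. Other scripts ran in Python 3.11.15. The edgeR fit of SAP against CON in the members was tested on simulated counts, and the share, class and interaction tests were not. Intervals are exact binomial at 95% and, like the limits from 3 counts, cover counting error only. The shares of nuclei with a hormone UMI, given where free RNA was gauged, used nuclei thinned to 1200 UMIs. The hormone classes used all UMIs of a nucleus.

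The rule, the hormone classes and the gene lists were chosen with earlier results of these data known, and the members by their own marker counts. Named were the markers and hormones, the 20 genes with the highest ratio, the 10 genes per direction with the lowest p among non-overlapping genes of at least 50 CPM, and members of the lists by level or p, with a few singled out after their values were seen (the receptors, channels and factors named by level in the text, and genes of the class comparison). A few genes that these rules name are not reported here.

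Same-numbered CON and SAP libraries deviated together over the other nuclei (r = 0.677, 0.240 and 0.358 over 12224 genes; 0.0618, 0.0356 and 0.0564 over 5531 genes in the members), so the replicate numbers were treated as pairs in the blocked alternative; the labels give no reason for it.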

Additional observations from a re-analysis of the deposited data

Results flagged for a closer look

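For 10 genes the effect of SAP in the enteroendocrine nuclei differed from that in all other nuclei of the same rats by edgeR's interaction test, each being relatively lower in the SAP members. The interaction was -2.87 for Nrg1 (edgeR adjusted p = 1.85e-05), -2.88 for Robo1 (0.00226), -4.90 for Ntrk3 (0.00240), -4.51 for Cpne4 (0.00310) and -3.35 for Nrxn3 (0.00334) on the log2 scale. It was -4.12 for Cntn5 (0.0442), -2.21 for Robo2 (0.0463), -3.78 for Hs3st5 (0.0463) and -5.41 for Gap43 (0.0463). LOC103690480 (0.0166) had no UMI in any SAP member, so its fitted fold change is no bound and is not given. The 21 nuclei with enteric neuron genes held between 51.3% and 97.5% of the members' UMIs of each of the 10 genes, and without these nuclei none of the 9 that could still be tested passed, with adjusted p-values of 0.942 and above by edgeR. Their interactions then lay between -1.29 (Ntrk3) and 0.92 (Cpne4), LOC103690480 left aside. That gene, with no SAP UMI, had an unadjusted edgeR p of 0.0097.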

How the results depend on the processing

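No alternative gave an adjusted p past the threshold for the share or a hormone class, so the signs below are of differences that were not called and the causes were not tested. The share difference of -0.155 points became 0.0502 with 2 or more markers and 0.0384 at a 1% mitochondrial limit, and ran from -0.263 to -0.0897 without 1 library. The enterochromaffin difference became -2.19 points at 3 UMIs, -0.475 when thinned and -5.79 without members holding 3 genes of another type (-5.16 to 8.56 without 1 library). The L difference became 2.16 at 1 UMI, 6.51 with 4 or more markers and 0.513 without members above 10000 UMIs (-8.49 to 2.94). The D difference became -0.986 at 3 UMIs, -2.62 with 4 or more markers, -2.0 without members holding 3 genes of another type and -0.286 without members above 10000 UMIs (-0.817 to 1.85), and 10.3 at a 1% mitochondrial limit, which leaves 3 members in SAP replicate 1, while the N difference kept its sign (-8.48 to -4.81). The 0 genes called by edgeR became 33 with no filter on low counts, 1 by DESeq2 (St8sia6), 1 of 68 tested (RT1-A3) without members holding 3 genes of another type and 1 (St8sia6, adjusted p = 0.0492) without members above 10000 UMIs or with neuron genes, and 0 to 1 without 1 library (Itln1, adjusted p = 0.0397, without SAP replicate 3). Reversed were Tph1 (0.33 without CON replicate 2, 0.058 without SAP replicate 3, and -0.89 to 0.33 over all 6 such settings), Bcas1 (0.18 with 4 or more markers) and Guca2a (0.026 without members above 10000 UMIs). The count of 10 interaction genes became 0 without the rat as a block and 0 without neuron-marked members. It became 1 without members above 10000 UMIs (Cpne4) and 1 without both (Apoa1, higher). It was 0 without CON replicate 1, 140 without CON replicate 3, 19 without SAP replicate 1 and 2 without SAP replicate 2. Without SAP replicate 3 it was 1 (Slc39a10, higher), a gene not among the 10. Against tuft nuclei 0 became 1 and 2 without CON replicate 3 and SAP replicate 1. The goblet-gene limit was met by 77.8% of nuclei and defines no cell type. The test used the 25286 nuclei that met it and held no other type's genes. Against these, 14 of 15383 genes became 0 without the block, 2 without neuron-marked members and 4 without members above 10000 UMIs. The count was 0 without both and 0 to 205 without 1 library. The fit with the replicate block called 0 genes and changed no call, with a limma adjusted p of 0.686 for the share. Each replicate number holds 1 library per group, so the block could not move the share difference of -0.155 points. The type of barcode list as a term called 0 genes and changed no call on the share or the classes. That setting and those without members above 10000 UMIs or with neuron genes were chosen after seeing the data. Leaving out members with 3 genes of another type keeps 53 of the 260, since 204 hold 3 goblet genes, which mark no cell type here. The main limits are 260 nuclei, 13 of them in SAP replicate 1, hormone classes that rest on 2 UMIs, untested doublets and free RNA.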
